A study of Mus musculus with 12 samples.

Results

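The genes described here are Brca1 and 8 genes of homologous recombination and the linked Fanconi anaemia pathway: Bard1, Brca2, Rad54l, Fanca, Fanci, Fancd2, Blm and Exo1. They were taken by name from the count and reads-per-kilobase tables of a mouse heart RNA sequencing study, and all 9 of the 9 were found among 38293 genes and passed the filter that left 14770 genes for testing. The list was drawn up with results of these same libraries in view, and which comparison weighed in that choice was not recorded. The group differences of the 9 genes are therefore given as a description, and no p of theirs is used as support.

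The study injected the heart muscle of healthy C57BL/6J mice at 2 places with 10 µl each and took the left ventricle 3 days later. The 12 libraries form 3 groups of 4. Hearts of the first group (antimiR-195 hearts) received a Upy-PEG hydrogel that carried antimiR-195, hearts of the second (Upy-PEG hearts) the hydrogel with no drug, and hearts of the third (PBS hearts) phosphate-buffered saline. All 3 groups share the opened chest and the needle injury, and no uninjected heart was analysed here. Upy-PEG is a poly(ethylene glycol) gel whose chains are joined reversibly through ureidopyrimidinone units. AntimiR-195 is named as an inhibitor of the microRNA miR-195, and its own sequence is not given in the sources used here. The age and sex of the mice are not given either. The labels do not say that each library came from a separate mouse, so a spread or a p measures differences between samples.

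Homologous recombination repairs a DNA break by copying the intact sister chromatid, and it works mainly in cells that are copying their DNA or have just done so. BRCA1 and its partner BARD1 bring the repair proteins to the break, nucleases such as EXO1 trim the ends, BRCA2 prepares the trimmed ends for strand exchange, and the motor protein RAD54L helps the broken strand invade its template. The Fanconi proteins mark crosslinked DNA for the same machinery, and the helicase BLM untangles the joined molecules at the end. Adult heart muscle cells rarely divide, and most dividing cells of the injured adult heart are stromal or immune cells.

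The drug's target is defined by a short seed, bases 2 to 8 of the mature microRNA, which pairs with messenger RNAs. The mature miR-195a-5p (GRCm38 chr11:70235062-70235082, plus strand) and 4 relatives are shown because they carry the same seed, in capitals, as do 10 mature mouse microRNAs in all in RefSeq (GRCm38.p6).
miR-195a-5p: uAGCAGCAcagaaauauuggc
miR-497a-5p: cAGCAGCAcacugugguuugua
miR-15a-5p: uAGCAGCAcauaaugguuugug
miR-15b-5p: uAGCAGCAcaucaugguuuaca
miR-16-5p: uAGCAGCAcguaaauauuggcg

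A match to that seed in the annotated 3′ untranslated region (complement of bases 2 to 8, with or without a following A) was present in 2 of the 9 genes, Bard1 and Exo1. Among 13317 tested genes with an annotated 3′ region, 24.8% held such a match. The untranslated regions searched had 3022 bases for Bard1 and 4924 bases for Exo1, against a median of 1192 bases for tested genes. Both sites are printed as DNA with the match in capitals: the Bard1 site lies at chr1:71027823-71027849 on the minus strand and the Exo1 site at chr1:175912349-175912375 on the plus strand (GRCm38).
Bard1 site: cttcccacacTGCTGCTtgctgccgag
Exo1 site: ccttctaccaTGCTGCTtcctgtgtga
The Brca1 region of 1003 bases held no match, not even of the 6 core bases, and neither did those of Brca2, Rad54l, Fanca, Fanci, Fancd2 and Blm. A 6-base match or longer was present in 45.6% of the tested genes, and Bard1 and Exo1 each held 3, the printed site included. Of those in Exo1, the 6-base match at position 447 of the region was followed by an A. These are matches of letters, and no binding was measured.

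The promoters of Brca1, Rad54l and Brca2 are shown because Brca1 and Rad54l had the largest and Brca2 the smallest of the differences between Upy-PEG and PBS hearts described below. Each run covers 250 bases before the RefSeq start and 50 bases after it, on the gene's own strand (GRCm38.p6). They lie at chr11:101551906-101552205 (minus strand), chr4:116123641-116123940 (minus strand) and chr5:150522371-150522670 (plus strand). Capitals mark letters searched on both strands: CCAAT, the E2F-like TTGGCGC and TTCGCGC, and TTTGAA, the core of the cell cycle homology region.
Brca1 promoter: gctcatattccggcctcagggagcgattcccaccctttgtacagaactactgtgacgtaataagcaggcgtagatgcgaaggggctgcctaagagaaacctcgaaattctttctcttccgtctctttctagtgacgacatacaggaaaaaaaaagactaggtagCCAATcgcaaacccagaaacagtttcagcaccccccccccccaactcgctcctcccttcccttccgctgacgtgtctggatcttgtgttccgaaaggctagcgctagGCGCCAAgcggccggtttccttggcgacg
Rad54l promoter: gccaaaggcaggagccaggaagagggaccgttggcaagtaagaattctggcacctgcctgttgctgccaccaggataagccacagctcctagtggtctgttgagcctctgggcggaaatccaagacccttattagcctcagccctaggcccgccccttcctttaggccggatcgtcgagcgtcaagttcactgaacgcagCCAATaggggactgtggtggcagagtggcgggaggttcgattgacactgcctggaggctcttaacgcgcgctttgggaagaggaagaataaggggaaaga
Brca2 promoter: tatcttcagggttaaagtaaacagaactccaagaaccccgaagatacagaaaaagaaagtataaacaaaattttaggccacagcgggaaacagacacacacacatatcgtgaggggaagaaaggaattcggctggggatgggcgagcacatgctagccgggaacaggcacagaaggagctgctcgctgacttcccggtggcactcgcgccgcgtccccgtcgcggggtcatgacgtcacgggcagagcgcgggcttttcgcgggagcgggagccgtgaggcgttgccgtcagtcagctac
Of the 7 genes with a promoter entry, Brca1 alone held either of the E2F-like words searched, read as GCGCCAA at position 22 after the start. Either word was held by 3.98% of 27025 mouse promoters. Other forms of the E2F site were not searched, so a promoter without these words may still hold one. CCAAT, whose matches in these promoters overlap none of the other words, was present in the promoters of Brca1, Rad54l, Fanca and Blm, and in 37.9% of all promoters. TTTGAA was present in that of Bard1 and in 18.1% of all. The Brca2 and Fanci windows held none of the words searched, and Exo1 and Fancd2 had no entry.

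All 9 genes were rare messages in the ventricle. Mean levels per length ran in the order Blm, Bard1, Fanca, Brca2, Brca1, Rad54l, Fanci, Exo1 and Fancd2, from 0.475 to 0.135 RPKM (reads per kilobase of gene scaled to library size, the authors' values), against a median of 3.98 RPKM for all tested genes. Blm lay above the next gene by more than the SD of any group of either gene, and each further step was smaller than the largest group SD of the pair. For Brca2, Blm and Exo1 the length behind the RPKM, 10724, 4946 and 5506 bases, is shorter than the merged exons of the annotation used here, so the places of these 3 genes depend on that length. Each gene had between 7 and 128 counts in a library, and libraries held 22353241 to 30278621 counts on genes. Such counts carry a wide counting error of their own: the 15 Brca1 counts of antimiR-195 replicate 2 have an exact 95% Poisson interval of 8.40 to 24.7, and the 128 of Upy-PEG replicate 1 one of 107 to 152. The interval covers counting error only.

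Some libraries stood apart before any comparison. AntimiR-195 replicates 2 and 3 had lower values for longer genes, with slopes of log2 CPM on log2 gene length of −0.229 and −0.135, while the other libraries had −0.042 to 0.122. Upy-PEG replicate 1 was the highest of all 12 libraries for 7 of the 9 genes, all but Brca2 and Exo1. Where leaving out 1 of these libraries, or both antimiR-195 libraries, moved a gene's difference given below, if beyond 0.2 on the log2 scale, by over 1.5 times, the value without them stands beside it. In left ventricle tissue the heart muscle markers were abundant in every library, and fewer cells of a type and less RNA per cell cannot be told apart in bulk tissue.

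Brca1 and its partner Bard1, which together form a ubiquitin ligase, differed in how far they moved. Brca1 (ENSMUSG00000017146, GRCm38 chromosome 11, 101488764 to 101551955, minus strand) measured 0.974, 0.645, 1.08 and 0.890 CPM (counts scaled to library size by edgeR's TMM method) in the antimiR-195 hearts, 3.98, 1.82, 1.55 and 2.66 CPM in the Upy-PEG hearts and 0.912, 0.976, 1.21 and 1.23 CPM in the PBS hearts. Every Upy-PEG library was above every library of the other groups, and the antimiR-195 and PBS libraries overlapped. The log2 fold change was −1.49 ± 0.301 for antimiR-195 against Upy-PEG, 1.21 ± 0.293 for Upy-PEG against PBS and −0.27 ± 0.316 for antimiR-195 against PBS (SE, n = 4 libraries per group). Without Upy-PEG replicate 1, the first of these was −1.17 and the second 0.90. With the length slope of each library as a covariate they were −1.23 and 1.24, and without antimiR-195 replicates 2 and 3 the first was −1.43. Without antimiR-195 replicate 2 alone the difference from PBS was −0.14.

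Bard1 (chromosome 1, 71027498 to 71103146, minus strand) measured 1.44, 1.33, 1.27 and 1.78 CPM in antimiR-195 hearts, 2.45, 1.98, 1.87 and 1.40 CPM in Upy-PEG hearts and 0.977, 1.23, 1.83 and 1.87 CPM in PBS hearts. The 3 groups overlapped. Its log2 fold change was −0.40 ± 0.253 for antimiR-195 against Upy-PEG and 0.39 ± 0.251 for Upy-PEG against PBS. Without Upy-PEG replicate 1 these were −0.26 and 0.26. The first was also −0.26 without antimiR-195 replicates 2 and 3, and the second was 0.23 without PBS replicate 1 and 0.20 with limma voom.

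Brca2 and Rad54l, which act in strand exchange, had the lowest and the highest of the 9 log2 fold changes for Upy-PEG against PBS. Brca2 (chromosome 5, 150522630 to 150570329, plus strand), a mediator of strand exchange, measured 2.41, 2.45, 2.54 and 2.17 CPM in antimiR-195 hearts, 2.30, 2.51, 1.79 and 2.40 CPM in Upy-PEG hearts and 2.28, 2.67, 2.66 and 2.23 CPM in PBS hearts. Its groups overlapped throughout, and its log2 fold changes were 0.09 ± 0.166 for antimiR-195 against Upy-PEG and −0.13 ± 0.165 for Upy-PEG against PBS. The coefficient of biological variation of Brca2, estimated by edgeR gene by gene and apart from the test, was 0.136, the lowest of the 9. Rad54l (chromosome 4, 116094264 to 116123690, minus strand), the translocase that drives strand invasion, measured 0.742, 1.76, 1.52 and 1.08 CPM in antimiR-195 hearts, 3.33, 1.92, 1.79 and 1.18 CPM in Upy-PEG hearts and 0.424, 0.848, 0.749 and 0.836 CPM in PBS hearts. All Upy-PEG libraries lay above all PBS libraries, while antimiR-195 libraries overlapped both other groups. The log2 fold change of Rad54l was −0.69 ± 0.344 for antimiR-195 against Upy-PEG, 1.54 ± 0.361 for Upy-PEG against PBS and 0.85 ± 0.374 for antimiR-195 against PBS. Without Upy-PEG replicate 1 the first was −0.35 and the second 1.20, and without antimiR-195 replicates 2 and 3 the first was −1.16 and the difference from PBS 0.39. Exons of Rad54l share 1184 bases with Lrrc41 on the other strand. Whether counting used the strand is not given in the sources used here, and ambiguous reads were left out. How reads from the shared bases were assigned is therefore not known.

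**Figure D1:**
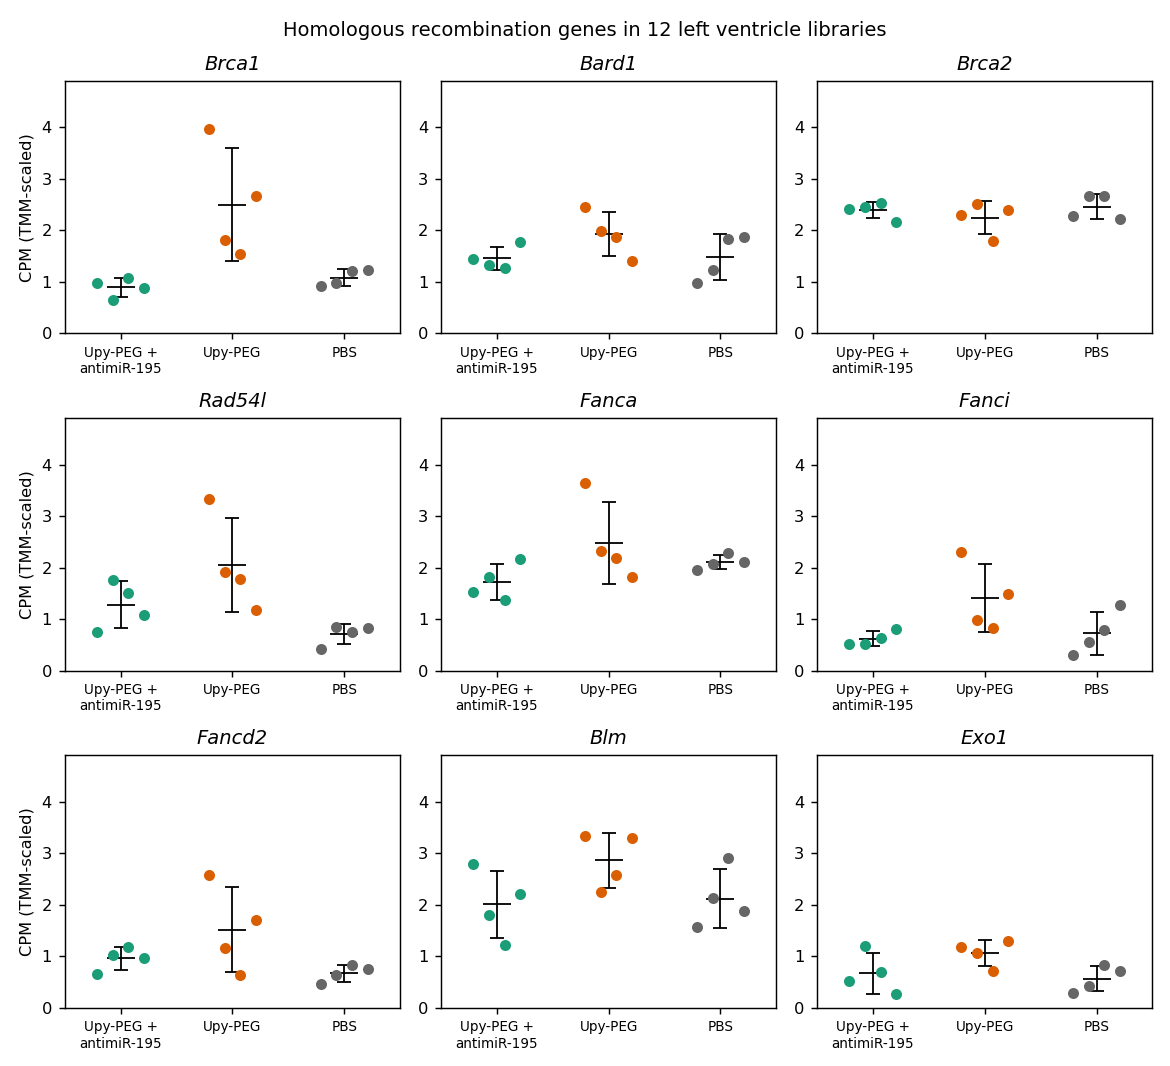
Level of each of the 9 genes in CPM (TMM-scaled, linear axis from 0) in the 4 libraries of each group, antimiR-195 left, Upy-PEG middle, PBS right. Points are libraries and bars mean ± SD. The Brca1 points of Upy-PEG hearts, 1.55 to 3.98 CPM, lie above all others, whereas Brca2 stays between 1.79 and 2.67 CPM in every library.

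Of the Fanconi genes, Fanca (chromosome 8, 123268300 to 123318576, minus strand) encodes a subunit of the core complex, which attaches ubiquitin to the pair of FANCI and FANCD2. It averaged 1.72 ± 0.35 CPM in antimiR-195 hearts, 2.49 ± 0.796 CPM in Upy-PEG hearts and 2.11 ± 0.138 CPM in PBS hearts (SD, n = 4 each). Its log2 fold change for antimiR-195 against Upy-PEG was −0.53 ± 0.231, and −0.29 without Upy-PEG replicate 1. For Upy-PEG against PBS it was 0.24 ± 0.226, and 0.00 without Upy-PEG replicate 1, which at 3.64 CPM was the only library above 2.31 CPM.

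Fanci (chromosome 7, 79391929 to 79450264, plus strand) measured 0.510, 0.516, 0.635 and 0.813 CPM in antimiR-195 hearts, 2.30, 0.991, 0.833 and 1.48 CPM in Upy-PEG hearts and 0.293, 0.551, 0.791 and 1.27 CPM in PBS hearts. The antimiR-195 libraries lay below all Upy-PEG libraries, by a margin of 0.813 against 0.833 CPM at the nearest, and the PBS libraries overlapped both other groups. The log2 fold change was −1.17 ± 0.423 for antimiR-195 against Upy-PEG and 0.96 ± 0.412 for Upy-PEG against PBS, and −0.82 and 0.62 without Upy-PEG replicate 1.

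Fancd2 (chromosome 6, 113531682 to 113597017, plus strand), the partner of FANCI on chromatin, measured 0.650, 1.03, 1.17 and 0.967 CPM in antimiR-195 hearts, 2.58, 1.16, 0.635 and 1.70 CPM in Upy-PEG hearts and 0.456, 0.636, 0.833 and 0.757 CPM in PBS hearts. Upy-PEG replicate 3 lay within the PBS range, so the groups overlapped although the log2 fold change for Upy-PEG against PBS was 1.19 ± 0.378. For antimiR-195 against Upy-PEG it was −0.68 ± 0.369, and −0.29 without Upy-PEG replicate 1. Exons of these 3 Fanconi genes overlap opposite-strand neighbours as well: Zfp276 for Fanca over 920 bases, Polg for Fanci over 921 bases and Fancd2os for Fancd2 over 257 bases.

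Of the enzymes that act on the DNA ends and the joint molecules, Blm (chromosome 7, 80454733 to 80535119, minus strand), a RecQ helicase, averaged 2.00 ± 0.658 CPM in antimiR-195 hearts, 2.86 ± 0.533 CPM in Upy-PEG hearts and 2.12 ± 0.578 CPM in PBS hearts (SD, n = 4 each). The groups overlapped, with log2 fold changes of −0.51 ± 0.261 for antimiR-195 against Upy-PEG and 0.44 ± 0.259 for Upy-PEG against PBS. Without antimiR-195 replicates 2 and 3 the first was −0.20. Exo1 (chromosome 1, 175880581 to 175913489, plus strand), an exonuclease of end resection and mismatch repair, measured 0.510, 1.20, 0.684 and 0.271 CPM in antimiR-195 hearts, 1.18, 1.06, 0.714 and 1.29 CPM in Upy-PEG hearts and 0.293, 0.424, 0.833 and 0.717 CPM in PBS hearts. The widest scatter of Exo1 was within the antimiR-195 hearts, where counts ran from 7 to 28. Its log2 fold change for antimiR-195 against Upy-PEG was −0.68 ± 0.414, −1.15 without antimiR-195 replicate 2, −1.46 without replicates 2 and 3 and −0.40 without replicate 4.

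**Figure D2:**
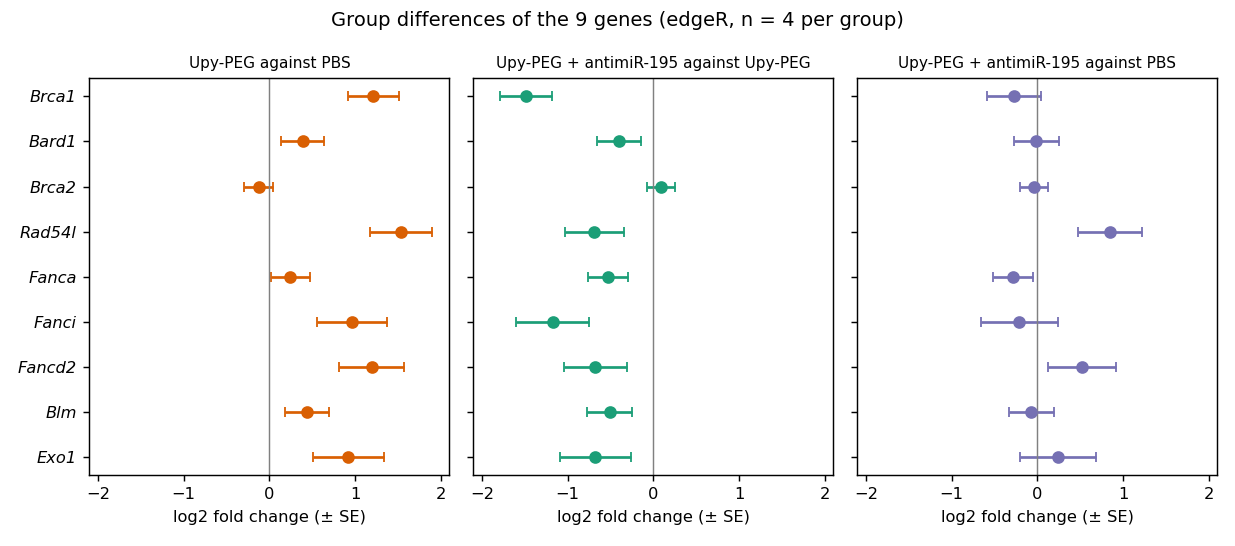
Log2 fold change ± SE (edgeR, n = 4 libraries per group) of the 9 genes in each comparison. Of the 9, Brca1 has the largest negative value for antimiR-195 against Upy-PEG, −1.49, Rad54l the largest positive value for Upy-PEG against PBS, 1.54, and Brca2 is near 0 in all 3 panels.

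Read as a list, 8 of the 9 genes were lower in antimiR-195 than in Upy-PEG hearts, with a median log2 fold change of −0.68 against −0.01 over all tested genes, and Brca2 was the exception at 0.09, which scaling by library size alone turned to −0.071. In edgeR's quasi-likelihood test with Benjamini-Hochberg adjustment, none of the 9 passed 0.05, as none of all 14770 genes did (0.0%). At an unadjusted p under 0.05, 3 were lower (Brca1, Fanca and Fanci) beside 6.4% of all genes, and for 2 (Brca1 and Fanci) the groups did not overlap, beside 2.46% of all genes. DESeq2 called 16 genes (0.118%), Brca1 among them, and limma voom called 0. The median of the 9 was −0.35 without Upy-PEG replicate 1 and −0.90 without antimiR-195 replicates 2 and 3.

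Between Upy-PEG and PBS hearts, 8 of the 9 genes were higher with the gel, again all but Brca2, and the median log2 fold change was 0.92 against −0.03 over all genes. EdgeR's adjusted p passed 0.05 for none of the 9 and none of all genes (0.0%). At an unadjusted p under 0.05, 5 genes were higher (Brca1, Rad54l, Fanci, Fancd2 and Exo1) beside 9.33% of all genes, and the groups did not overlap for Brca1 and Rad54l, beside 5.91%. An adjusted p under 0.10 was reached by Brca1 and Rad54l among 155 genes (1.05%). DESeq2 called the same pair at 0.05 among 511 genes (3.53%), and so did limma voom among 918 genes (6.22%). The median of the 9 was 0.62 without Upy-PEG replicate 1, 0.59 with limma voom and 0.61 with limma-trend on log2(RPKM + 0.1). A filter at a mean of 1 CPM left 7 of the genes, without Fanci and Exo1, with a median of 0.44. These comparisons share the Upy-PEG libraries, so their opposite signs are not independent.

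Set directly against PBS hearts, the antimiR-195 hearts had values on both sides of 0. The median log2 fold change was −0.04 against 0.01 over all genes, with 3 of the 9 higher and 6 lower. None passed edgeR's adjusted threshold (0.0% of all genes), 1 gene, Rad54l, was higher at an unadjusted p under 0.05, beside 8.65% of all genes. For none of the 9 were the groups apart, beside 2.74% of all genes apart upwards and 3.32% apart downwards. DESeq2 called 97 genes (0.778% of the 12469 to which it gave an adjusted p) and limma voom 1 (0.00677%), none of them among the 9. In this comparison DESeq2 gave an adjusted p to only 4 of the 9, Bard1, Brca2, Fanca and Blm. With the length slope as a covariate the median was 0.14, and Brca1 had 0.01.

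The other genes of the pathway, 71 chosen for their textbook roles, give a wider view, and 69 of them passed the filter. None passed edgeR's adjusted threshold in any comparison. Their median log2 fold change was −0.10 for antimiR-195 against Upy-PEG, with 29 higher and 40 lower, 0.00 for Upy-PEG against PBS, with 35 higher and 34 lower, and 0.00 for antimiR-195 against PBS, with 35 higher and 34 lower. At an unadjusted p under 0.05, 11 were lower and 3 higher in antimiR-195 than in Upy-PEG hearts, beside 6.4% and 6.67% of all genes. In Upy-PEG against PBS hearts 12 were higher and 3 lower, beside 9.33% and 3.83% of all genes, and in antimiR-195 against PBS hearts 6 were higher and 7 lower, beside 8.65% and 7.89%. The libraries of 5 of the 69 genes lay wholly lower in antimiR-195 than in Upy-PEG hearts (2.46% of all genes) and those of 0 wholly higher (1.94% of all genes). In Upy-PEG against PBS hearts 8 lay wholly higher (5.91% of all genes) and 3 wholly lower (3.77%). DESeq2 called Dna2 and Eme1 in that comparison, beside 3.53% of all genes, and Top3a in antimiR-195 against PBS hearts, beside 0.778%. Limma voom called Dna2, Eme1, Top3a and H2afx, the last named after its values were seen, in Upy-PEG against PBS hearts, beside 6.22% of all genes. By edgeR's log2 fold change Top3a was lower in both comparisons, at −0.28 and −0.58 in that order of Upy-PEG and antimiR-195 against PBS, and Dna2, Eme1 and H2afx were higher in Upy-PEG hearts.

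None of the genes named next passed edgeR's adjusted threshold. Dna2, a nuclease and helicase of end resection, averaged 2.28 ± 0.0898 CPM in antimiR-195 hearts, 3.56 ± 0.675 CPM in Upy-PEG hearts and 2.21 ± 0.436 CPM in PBS hearts, with log2 fold changes of −0.65 ± 0.189 against Upy-PEG (edgeR adjusted p = 0.364) and 0.69 ± 0.188 for Upy-PEG against PBS (edgeR adjusted p = 0.122). Eme1, a subunit of the MUS81 nuclease, had a log2 fold change of 1.41 ± 0.407 for Upy-PEG against PBS (edgeR adjusted p = 0.134). In the same comparison the lowest p among lower values was that of Atrip, the partner of the checkpoint kinase ATR, at −0.27 ± 0.108 (edgeR adjusted p = 0.290), followed by Xrcc2 at −0.36 and by Swsap1 at −0.30.

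In antimiR-195 against Upy-PEG hearts, the RecQ helicase Recql4 had a log2 fold change of −0.85 ± 0.231 and the recombination factor Hrob one of −1.10 ± 0.310, both at an edgeR adjusted p of 0.364. Higher values had the lowest p in Brcc3, at 0.28, Zswim7, at 0.46, and Abraxas1, at 0.30. Brcc3 and Abraxas1 encode subunits of a BRCA1-associated complex that removes ubiquitin. In antimiR-195 against PBS hearts, Rad51c, Rmi2 and Rmi1 had 0.73, 1.08 and 0.38, and Top3a, Trp53bp1 and Fan1 had −0.58, −0.44 and −0.79 on the log2 scale. TOP3A, RMI1 and RMI2 work in 1 complex with BLM, and their genes had values of different sign.

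The level of a gene went with the size of its difference. Split at the median level of the list, 1.77 RPKM, a division made after the values were seen, the 35 less abundant genes had a median log2 fold change of −0.29 for antimiR-195 against Upy-PEG and 0.15 for Upy-PEG against PBS. The 34 more abundant genes had 0.09 and −0.04. All tested genes at or under the same level had −0.10 and 0.04. At an unadjusted edgeR p under 0.05, 9.51% of them were lower in antimiR-195 than in Upy-PEG hearts. By the same cutoff 12.2% were higher in Upy-PEG than in PBS hearts. Both shares were above those of all genes, 6.4% and 9.33%. Of the 35 less abundant pathway genes, 9 were lower and 0 higher in antimiR-195 than in Upy-PEG hearts at that cutoff. In Upy-PEG against PBS hearts 9 of them were higher and 2 lower. Of the 34 more abundant, 2 were lower and 3 higher in the first comparison, and 3 higher and 1 lower in the second. All 9 genes, Brca1 included, belong by level to the less abundant part.

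**Figure D3:**
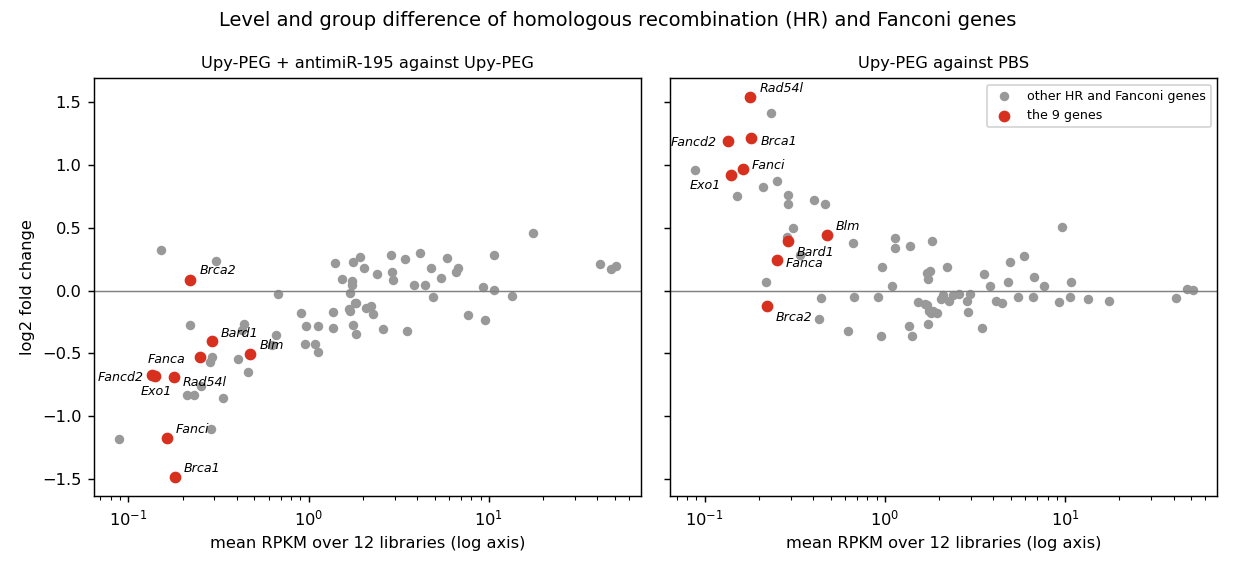
Mean level over 12 libraries (RPKM, log axis) against log2 fold change for the 9 genes (red) and the 69 other pathway genes (grey), antimiR-195 against Upy-PEG at left and Upy-PEG against PBS at right. Differences beyond 0.6 in either direction lie at the left of each panel, under 0.5 RPKM, where the 9 genes sit.

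In other repair pathways the medians lay near 0. The median log2 fold change for Upy-PEG against PBS was −0.04 for 10 genes of end joining, −0.05 for 6 of mismatch repair, −0.09 for 14 of base excision repair and −0.05 for 13 of nucleotide excision repair, and for antimiR-195 against Upy-PEG it lay between −0.01 and 0.10 in these lists. None of these genes passed the adjusted threshold in edgeR, DESeq2 or limma voom, and at most 2 of a list had an unadjusted edgeR p under 0.05 in any comparison.

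Genes of the cell cycle, during which recombination works, also differed in level between these libraries. For Upy-PEG against PBS the median log2 fold change was 0.58 for 20 S-phase genes, 19 of them higher. It was 1.10 for 20 mitosis genes, 20 of them higher, beside 0.92 for the 9 genes. For antimiR-195 against Upy-PEG it was −0.49 for the S-phase genes, 17 of them lower. The mitosis genes had −0.77, with 20 lower, beside −0.68 for the 9 genes. Between Upy-PEG and PBS hearts 15 mitosis and 5 S-phase genes lay wholly higher (5.91% of all genes). There DESeq2 called 15 and 4 of them (3.53% of all genes) and limma voom 15 and 3 (6.22%). Between antimiR-195 and Upy-PEG hearts 7 mitosis and 4 S-phase genes lay wholly lower (2.46%). DESeq2 called 2 and 0 there (0.118%), and limma voom 0 of either list. EdgeR's adjusted threshold was passed by none in either comparison. The summed level of 20 S-phase genes ran from 183 to 249 CPM in antimiR-195 hearts, from 212 to 270 CPM in Upy-PEG hearts and from 177 to 219 CPM in PBS hearts. That of 20 mitosis genes ran from 83.6 to 152, from 150 to 276 and from 73.7 to 122 CPM in the same groups. Mki67, a marker of cycling cells, averaged 11.5 ± 2.23 CPM in antimiR-195 hearts, 28.4 ± 11.0 CPM in Upy-PEG hearts and 12.1 ± 3.80 CPM in PBS hearts, whereas Pcna, the replication clamp, averaged 29.6 ± 6.10, 29.4 ± 1.5 and 24.2 ± 2.44 CPM (SD, n = 4 each). Top2a averaged 11.3 ± 3.72 CPM in antimiR-195 hearts, 25.1 ± 9.29 CPM in Upy-PEG hearts and 10.2 ± 4.03 CPM in PBS hearts.

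Brca1 was also set against the S-phase genes as a share of their sum. It was 0.531%, 0.260%, 0.520% and 0.468% of that sum in antimiR-195 hearts, 1.47%, 0.767%, 0.728% and 1.07% in Upy-PEG hearts and 0.477%, 0.552%, 0.610% and 0.565% in PBS hearts. Each Upy-PEG value was above each value of the other groups. The same share of each of the other genes described here overlapped between Upy-PEG and PBS hearts. For Rad54l it ran from 0.474% to 1.23% in Upy-PEG hearts and from 0.222% to 0.480% in PBS hearts. Shares of the mitosis sum were not computed. Brca1 had a log2 fold change of 1.21 for Upy-PEG against PBS, beside medians of 1.10 for the mitosis and 0.58 for the S-phase genes. For antimiR-195 against Upy-PEG it had −1.49, beside −0.77 and −0.49. Whether Brca1 moved apart from the cell cycle was not tested.

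Markers of other cell types were summed in the same libraries. The sum of 10 macrophage markers ran from 857 to 1725 CPM in antimiR-195 hearts, from 1223 to 1781 CPM in Upy-PEG hearts and from 652 to 1003 CPM in PBS hearts. The sum of 7 fibroblast markers ran from 2246 to 3693, from 3244 to 6516 and from 2366 to 3876 CPM. The sum of 8 heart muscle markers ran from 80151 to 88596, from 61339 to 80617 and from 82697 to 94893 CPM in the same order of groups. The sum of 5 erythroid markers ran from 547 to 1314 CPM in antimiR-195 hearts, from 253 to 550 CPM in Upy-PEG hearts and from 480 to 1456 CPM in PBS hearts. The sum of 7 neutrophil markers ran from 11.9 to 32.0, from 26.2 to 38.6 and from 11.1 to 32.2 CPM. Sums of endothelial, smooth muscle and lymphocyte markers overlapped among all 3 groups. No marker was at 0 in every library, while the neutrophil marker Ly6g and the lymphocyte markers Cd3e, Cd3d, Ms4a1 and Nkg7 were at 0 in some. The part of the cell cycle and of these cell types in the differences of the 9 genes was not tested.

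**Figure D4:**
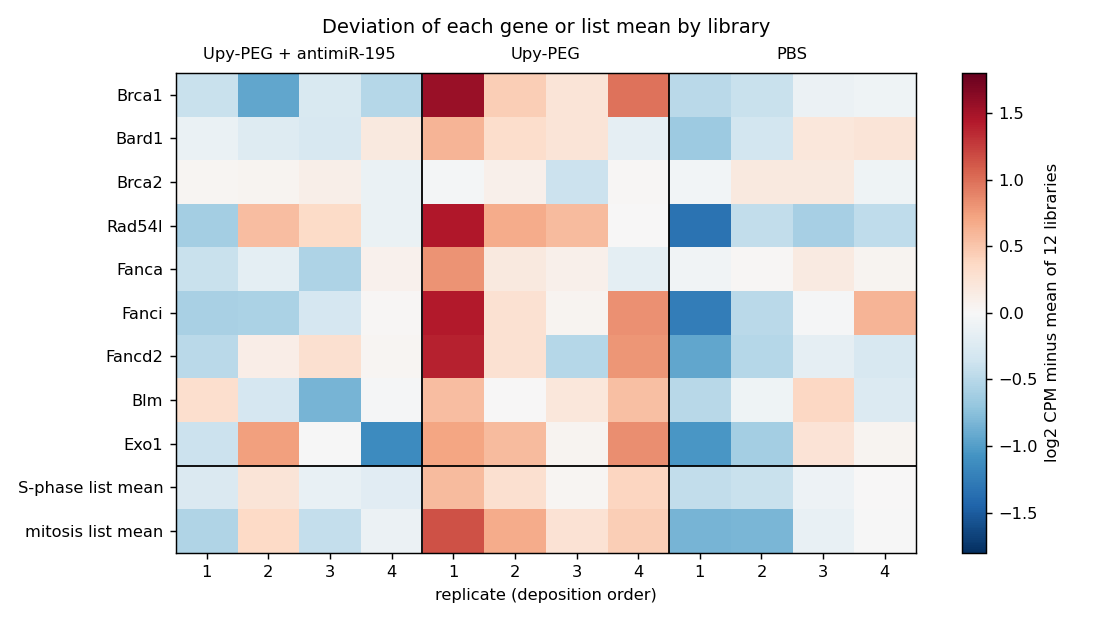
Log2 CPM of each gene in each library, less its mean over 12 libraries, with the means of the S-phase and mitosis lists below; columns are antimiR-195, Upy-PEG and PBS replicates 1 to 4. Upy-PEG replicate 1 is the darkest column, with a mean of 0.94 over the 9 genes, and PBS replicate 1 is the lowest, at −0.70.

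Most pairs of the 9 genes varied in the same direction. Over the 12 libraries the Pearson r of log2 CPM was above 0 in 30 of their 36 pairs, with a median of 0.57, and after subtraction of group means in 32 of 36, with a median of 0.37. Brca2 had a negative r with 6 of the other 8 genes over the 12 libraries, but after subtraction of group means its r was positive with 6 of the 8, at 0.55 with Fancd2, 0.50 with Exo1 and 0.32 with Brca1. With Brca1, r was 0.85 for Fanci, 0.73 for Fancd2, 0.64 for Blm, 0.62 for Fanca, 0.61 for Bard1, 0.57 for Rad54l, 0.57 for Exo1 and −0.14 for Brca2. Without Upy-PEG replicate 1 it was 0.75 for Fanci, 0.53 for Blm, 0.50 for Exo1, 0.49 for Fancd2, 0.38 for Bard1, 0.26 for Rad54l and 0.20 for Fanca. After subtraction of group means it was 0.79 for Fancd2, 0.75 for Fanci, 0.38 for Bard1, 0.36 for Fanca, 0.34 for Blm, 0.25 for Rad54l and 0.21 for Exo1. The libraries share their depth and tissue makeup between genes, and these values describe 12 libraries.

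The set compared with Brca1 held 13055 genes, those with a mean of at least 1 CPM and also Fanci and Exo1, which were under it. The pattern of Brca1 was most like those of Esyt1 (r = 0.94) and Mcm2 (r = 0.94), MCM2 being a subunit of the replicative helicase. Pik3ap1, Sesn2, Cdc25b, Csf2ra, Ifnar1, Aspm, Wdr62 and Cip2a followed, with r from 0.93 to 0.89. The median r of all these genes with Brca1 was 0.02, and 95% of them were under 0.67. After subtraction of group means 95% were under 0.595, and the genes just named ran from 0.862 for Ifnar1 to 0.594 for Aspm. Mcm2 averaged 8.65 ± 0.584 CPM in antimiR-195 hearts, 12.6 ± 1.85 CPM in Upy-PEG hearts and 9.90 ± 1.57 CPM in PBS hearts. Of the other pathway genes, Dna2 was the most like Brca1, with r = 0.83, and 0.48 after subtraction of group means.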

How the data were processed

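Polyadenylated RNA from 12 snap-frozen left ventricles was extracted with TRIzol and made into TruSeq stranded libraries, per the labels. The submitters' processing notes name GRCm38, the aligner STAR, the read counter HTSeq and DESeq. The deposited counts are raw counts per gene, and the deposited RPKM values are the authors' reads per kilobase of gene, scaled to library size. Tool and annotation versions, the strand setting and the lengths' source are not given in the sources used here. The count table equalled the per-sample files in 459516 of 459516 cells. Reads on no gene, 6.25% to 8.77%, and ambiguous reads, 0.664% to 0.898%, were left out. Alignments to several places were left out too. Per counted read they were 0.921 and 0.893 in antimiR-195 replicates 2 and 3 and 0.579 in Upy-PEG replicate 1. The other libraries had 0.616 to 0.749.

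Symbols and coordinates came from GENCODE M21 (GRCm38), which held 36429 of 38293 gene IDs. The 12 libraries were fitted together in edgeR 4.0.16 under R 4.3.3, with filterByExpr by group, TMM scaling, and glmQLFit and glmQLFTest on group means, which leave 9 residual degrees of freedom. Adjusted p are Benjamini-Hochberg values over the 14770 genes, with a threshold of 0.05. The SE came from the log2 fold change and its F statistic. CPM has no prior count and log2 CPM a prior count of 2. The steps were tested on simulated data. Non-overlap means that every library of one group lies above every library of the other.

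The 9 genes and all lists were chosen with earlier results of these data known. Named were the 9 genes, in each comparison the 3 other pathway genes of each sign with the lowest p, Mki67, Pcna, Mcm2 and Top2a, the 10 genes most like Brca1 and markers at 0. A gene that this rule names is not reported here. Alternatives to the tool were DESeq2 1.42.0, weighted limma voom (limma 3.58.1) and limma-trend on log2(RPKM + 0.1). Other alternatives were RLE factors, no filter, a minimum mean CPM of 1, a fit of the 8 libraries of a comparison alone, a threshold of 0.10, the length slope as covariate, leaving out antimiR-195 replicates 2 and 3, and leaving out each library. Library size alone and the split of the pathway list by level were chosen after seeing the data. No RNA quality values were used.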

Additional observations from a re-analysis of the deposited data

How the results depend on the processing

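Over the other settings, the log2 fold changes of the 9 genes kept their sign in all 205 values for Upy-PEG against PBS. They turned in 3 of 205 for antimiR-195 against Upy-PEG and in 19 of 205 for antimiR-195 against PBS, where most lie near 0. The cause was not tested. Each 205 includes the values under the threshold of 0.10, which repeat the main fit and could not turn. Each also includes fits that left out a library of the group not compared. Brca2 in antimiR-195 against Upy-PEG had −0.039 with limma-trend, −0.071 with library size alone and −0.021 without Upy-PEG replicate 3. In antimiR-195 against PBS, the length slope covariate gave 0.14 for the median of the 9 genes, 0.011 for Brca1, 0.23 for Bard1, 0.14 for Fanci, 0.23 for Blm and −0.16 for Exo1. Without antimiR-195 replicates 2 and 3 it was 0.14 for Bard1, 0.24 for Blm and −0.53 for Exo1, and limma voom gave −0.32 for Exo1. Leaving out 1 library at a time, that comparison ranged from −0.17 to 0.12 for the median and for Bard1, −0.085 to 0.0052 for Brca2, −0.49 to 0.21 for Fanci, −0.27 to 0.12 for Blm and −0.22 to 0.52 for Exo1. The r of Brca2 with Brca1 was 0.32 on deviations from group means and 0.31 on log2(RPKM + 0.1). Library size alone moved the median of all genes by 0.10 for Upy-PEG against PBS and −0.15 for antimiR-195 against Upy-PEG. At an unadjusted p under 0.05 the share of higher genes was then 91.7% (70.9% with TMM), 5.37% (51.04% with TMM) and, for antimiR-195 against PBS, 33.9% (52.3% with TMM).

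Counts past 0.05 were 0 in the main edgeR fit and varied most between settings for Upy-PEG against PBS. DESeq2 called 511 genes there and limma voom 918. Other edgeR settings called 69 genes with no filter, 172 with only the 8 libraries, 332 with the length slope and 349 without antimiR-195 replicates 2 and 3. The main edgeR fit had 155 genes at an adjusted p under 0.10. Leaving out 1 library gave 0 to 150 genes (46 without Upy-PEG replicate 3, 150 without antimiR-195 replicate 2). Of the 9 genes, 2 were called with DESeq2, limma voom, 0.10 or the length slope, and 1 without antimiR-195 replicates 2 and 3. Of the other pathway genes, 2 were called with DESeq2 and 4 with limma voom. For antimiR-195 against Upy-PEG, DESeq2 called 16 genes, 1 of them Brca1. For antimiR-195 against PBS, DESeq2 called 97 genes, 1 of them another pathway gene, and no filter and limma voom 1 each. A mean CPM of at least 1 left out Fanci and Exo1. No paired analysis was possible because the replicate numbers only follow the order of deposition.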
